A study of Mus musculus with 9 samples.

Results

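The genes described here are 9 genes of mast cells and basophils, chosen by name for what they encode: Cpa3, Hdc, Tpsb2, Ms4a2, Fcer1a, Mcpt8, Prss34, Gzmb and Cma1. The choice was made with earlier results of these data known. Of the 9 genes, 8 were measured among the 14461 genes of the table and all 8 entered the test. Prss34 was not analysed here. The genes were followed in 9 RNA sequencing libraries of LSK cells, the immature blood-forming cells that lack lineage markers and carry Sca-1 and c-Kit, sorted by flow cytometry from the bone marrow of parabiotic mice, which are joined so that they share a circulation. Of these libraries, 3 were labelled circulating (strain label C57BL/6), 3 irradiated (C57BL/6) and 3 endogenous (B6SJL CD45.1), so the strain label changes with the group in both comparisons with endogenous cells and cannot be told apart from it. The series' design text places the circulating cells in the marrow of an irradiated joined mouse. The labels do not say whether the strain label of these cells is their own or that of the host. The labels give no age, sex, radiation dose or number of animals for a library, and p-values therefore measure the spread between these libraries, which may be technical.

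Mast cells and basophils are granulocytes that carry the high-affinity receptor for immunoglobulin E (FceRI) and release histamine and proteases from their granules. Both arise from bone marrow progenitors in which GATA factors are active, and mast cells complete their maturation in tissues. Transcripts of their granule proteases can be present in early progenitors, Cpa3 in particular, before any granule is seen. All values below are the deposited normalised values, which are estimated counts scaled per library, and a gene was called when its adjusted p from limma was under 0.05.

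The members were high in 2 of the 3 circulating libraries and lower in replicate 1. For Hdc and Ms4a2, replicate 1 was still above every endogenous library. Summed over the 8 measured genes, the value was 124 in circulating replicate 1, 757 in replicate 2 and 1136 in replicate 3. It was 143, 202 and 284 in irradiated replicates 1 to 3, and 115, 121 and 96.4 in endogenous replicates 1 to 3. Each of the 8 genes was higher in both circulating replicates 2 and 3 than in any irradiated or endogenous library. Circulating replicate 1 held the lowest value of the 9 libraries for 4 of the 8 genes. The shares of all tested genes with these 2 patterns were not counted, so whether either pattern is particular to the members is unknown. In bulk samples, fewer cells of a type and less RNA per cell cannot be told apart.

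The granule proteases come first. Cpa3 encodes the mast cell carboxypeptidase and lies on chromosome 3 from 20215620 to 20242181 (GRCm38, minus strand). It was 49.6, 282 and 395 in circulating replicates 1 to 3, 62.2, 111 and 108 in irradiated replicates and 56.1, 64.7 and 47.9 in endogenous replicates. Circulating replicate 1 lay inside the endogenous range, and the circulating group overlapped both other groups. Group means were 242 ± 176, 93.8 ± 27.4 and 56.3 ± 8.40 (SD, n = 3), and the log2 difference between circulating and endogenous cells was 1.65 (SE 0.64, limma adjusted p = 0.141). Cpa3 had the highest value per kilobase of exon of the 8 genes in every group.

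Tpsb2 encodes a tryptase of mast cells (chromosome 17, 25366305 to 25369098, plus strand). Its values were 0.610, 139.7 and 136 in circulating replicates 1 to 3, 3.92, 1.41 and 21.3 in irradiated replicates and 1.69, 4.12 and 0.367 in endogenous replicates. Circulating replicates 2 and 3 were close to each other and were 229 and 223 times the value of replicate 1, which rested on 13 estimated counts. Irradiated replicate 3 stood above the other irradiated libraries. With a circulating mean of 92.1 ± 79.2 against 2.06 ± 1.91 in endogenous cells, Tpsb2 had the largest log2 difference of the 8 genes, 3.56 (SE 1.63), and did not pass (limma adjusted p = 0.202).

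Cma1, Mcpt8 and Gzmb encode serine proteases of 1 gene cluster on chromosome 14, at 55941451 to 55944675, 56082166 to 56085273 and 56258838 to 56262260, all on the minus strand. Cma1 encodes a mast cell chymase, Mcpt8 a protease used as a basophil marker, and Gzmb granzyme B, which cytotoxic lymphocytes also make. Cma1 was 0.0678, 65.5 and 171 in circulating replicates 1 to 3, 10.4, 3.08 and 19.8 in irradiated replicates and 3.68, 5.80 and 0.638 in endogenous replicates. The value in circulating replicate 1 was 1 estimated count, so the circulating group held both the lowest and the highest Cma1 values of the study. Mcpt8 was 13.9, 53.4 and 123 in circulating replicates, 17.2, 40.2 and 28.7 in irradiated replicates and 21.3, 16.2 and 26.1 in endogenous replicates. Circulating replicate 1 was again the lowest library and replicate 3 the highest. Gzmb was 2.68, 27.3 and 68.7 in circulating replicates, 5.91, 6.51 and 8.33 in irradiated replicates and 7.84, 3.24 and 5.20 in endogenous replicates. All 3 genes overlapped between every pair of groups. Their log2 differences between circulating and endogenous cells were 2.62 (SE 1.66) for Cma1, 1.09 (SE 0.61) for Mcpt8 and 1.66 (SE 0.82) for Gzmb, and none passed (limma adjusted p = 0.35, 0.277 and 0.225).

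Beside Gzmb, genes of natural killer and cytotoxic T cells were read. Of 14 such genes 9 were measured; Prf1, Gzma, Gzmk, Ncr1 and Eomes were not analysed here. Their summed value was 703 to 1273 in circulating, 708 to 822 in irradiated and 317 to 360 in endogenous libraries, and most of it was Nkg7 and Cst7. Nkg7 was 513, 662 and 896 and Cst7 151, 282 and 347 in circulating replicates 1 to 3. Both were lowest in replicate 1 and highest in replicate 3, as Gzmb was and as the granulocyte-monocyte progenitor genes Mpo and Elane were. Nkg7 was also called in irradiated against endogenous cells (limma adjusted p = 0.0144), where Gzmb was not (0.882). Other genes of the list differed: Ctsw was 30.6, 19.6 and 17.1, highest in replicate 1. Klrb1c (2.03, 15.1 and 0.200), Klrd1 (1.79, 4.77 and 0.991), Cd3e and Cd3d were highest in replicate 2. The T cell genes Cd3g and Cd8a were 31.0 and 32.3 in circulating replicate 2 and 5.29 and 0.221 in circulating replicate 3, where Gzmb was highest. The part of these cells in the Gzmb values was not tested.

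Hdc encodes histidine decarboxylase, the enzyme that makes histamine (chromosome 2, 126593667 to 126619299, minus strand). It was the member that rose. Hdc was 47.8, 96.8 and 175 in circulating replicates 1 to 3, 34.0, 25.2 and 74.2 in irradiated replicates and 15.6, 11.4 and 12.2 in endogenous replicates. Every circulating and every irradiated library was above every endogenous library, whereas the circulating and irradiated ranges overlapped. The means were 106 ± 64.0, 44.4 ± 26.1 and 13.1 ± 2.21 (SD, n = 3). The log2 difference between circulating and endogenous cells was 2.75 (SE 0.46, limma adjusted p = 0.00843). Hdc was called in 18 of 18 alternative settings, with adjusted p from 0.00186 to 0.0398 and a log2 difference from 2.30 to 3.23. Between irradiated and endogenous cells the log2 difference was 1.55 (SE 0.46, adjusted p = 0.147), and between circulating and irradiated cells it was 1.20 (SE 0.46, adjusted p = 0.373).

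The receptor genes followed the proteases in replicates 2 and 3. FceRI is made of an alpha chain that binds immunoglobulin E (Fcer1a), a beta chain that amplifies the signal (Ms4a2) and the gamma chain shared with other Fc receptors (Fcer1g). Ms4a2, on chromosome 19 from 11615523 to 11623719 (minus strand), was 9.42, 52.0 and 41.3 in circulating replicates 1 to 3, 6.80, 8.73 and 18.6 in irradiated replicates and 6.75, 8.84 and 1.68 in endogenous replicates. Circulating libraries did not overlap endogenous libraries, although replicate 1 exceeded the highest of them by little. The log2 difference was 2.28 (SE 0.66) and missed the threshold (limma adjusted p = 0.0535). Of the 50-base windows of the Ms4a2 transcript, 2.69% also occur in another gene, Ms4a4b among them, and for Cma1 this share was 5.38%; no such window was found for the other 6 measured members.

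Fcer1a (chromosome 1, 173221284 to 173227214, minus strand) had an estimated count of 0 in circulating replicate 1, deposited as 0.0226, which allows a value of up to 0.136 (3 counts, counting error only). It was 40.8 and 26.3 in circulating replicates 2 and 3, 2.76, 5.93 and 5.02 in irradiated replicates and 2.08, 7.08 and 2.26 in endogenous replicates. Replicates 2 and 3 were thus at least 301-fold and 194-fold higher than replicate 1, taking 3 counts as its floor. The log2 difference between circulating and endogenous cells was 1.28 (SE 1.10, limma adjusted p = 0.486). The shared gamma chain Fcer1g was more even, at 53.3, 91.0 and 92.7 in circulating, 64.7, 52.5 and 59.6 in irradiated and 60.1, 46.4 and 40.9 in endogenous replicates, and missed the threshold between circulating and endogenous cells (limma adjusted p = 0.108).

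Promoter sequences from RefSeq (GRCm38.p6) were matched for 7 of the 8 measured genes. Since these genes were high in the same libraries and the lineage depends on GATA factors, 3 motifs were searched on both strands from 250 bases before to 50 bases after the start: AGATAA (bound by GATA factors), CATGTG (bound by MITF) and TTCNNNGAA (bound by STAT5). AGATAA was found in 3 of the 7, those of Cpa3, Ms4a2 and Fcer1a, and in 11.2% of 32817 promoters of the same length. CATGTG was found in Fcer1a (14.2% of all promoters) and TTCNNNGAA in Gzmb (8.29%); the promoters of Hdc, Mcpt8 and Cma1 held none of the 3. The motifs overlapped in none of these promoters. The 150 bases before the start of the 3 genes with AGATAA are shown 5′ to 3′ along the gene's strand, with each match in capitals (TTATCT where it lies on the opposite strand). They lie at chr3:20242182-20242331, chr19:11623720-11623869 and chr1:173227230-173227379, all on the minus strand.
Cpa3: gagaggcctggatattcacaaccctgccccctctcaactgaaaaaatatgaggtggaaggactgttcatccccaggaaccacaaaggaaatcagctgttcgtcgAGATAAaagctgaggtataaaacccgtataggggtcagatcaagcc
Ms4a2: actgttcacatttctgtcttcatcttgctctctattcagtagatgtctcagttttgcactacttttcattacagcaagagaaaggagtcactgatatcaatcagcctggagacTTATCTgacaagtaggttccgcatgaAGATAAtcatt
Fcer1a: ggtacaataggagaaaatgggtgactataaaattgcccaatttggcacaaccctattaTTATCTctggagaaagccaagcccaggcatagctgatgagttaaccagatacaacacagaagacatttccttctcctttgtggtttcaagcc
The match in Cpa3 lies at positions -46 to -41 from the start, those shown for Ms4a2 at -37 to -32 and -11 to -6, and that of Fcer1a at -92 to -87. A further match in Ms4a2, at -224 to -219, lies outside the stretch shown. A match is a description of the letters, and binding was not measured here.

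**Figure D1:**
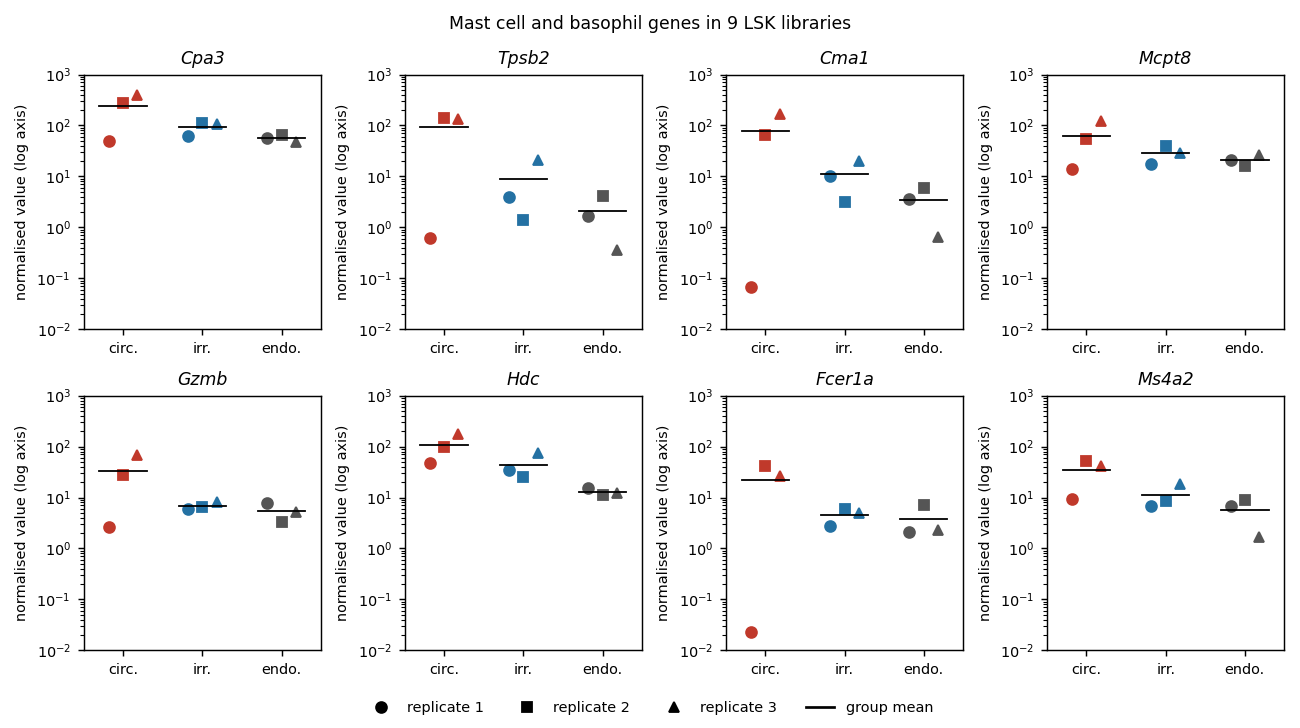
Normalised value of each measured gene (log axis) in the 9 libraries, by group, with replicates 1 to 3 as circles, squares and triangles and the group mean as a line. Circulating replicates 2 and 3 lie above all irradiated and endogenous libraries in all 8 panels, and the Fcer1a point of circulating replicate 1 is an estimated count of 0. How many of all tested genes lie so was not counted.

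Circulating cells were then compared with endogenous cells over all members. The log2 difference was above 0 for 8 of 8 genes, with a median of 1.97 where the median of all 13771 tested genes was -0.04. Of the 8, 1 rose (Hdc), 0 fell and 7 did not pass, while 8.63% of all tested genes were called. The circulating libraries lay wholly above the endogenous libraries for 2 of the 8 genes, Hdc and Ms4a2, and for 14.6% of all tested genes. The 95% intervals of 5 genes included 0, those of Tpsb2 (-0.12 to 7.24), Cma1 (-1.16 to 6.41), Fcer1a (-1.12 to 3.68), Mcpt8 (-0.24 to 2.42) and Gzmb (-0.14 to 3.45).

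Without circulating replicate 1, 8 of 8 genes were called higher in circulating than in endogenous cells, where 8.69% of all tested genes were. Adjusted p then ran from 0.000854 for Cpa3 to 0.0135 for Mcpt8, with log2 differences of 5.70 for Tpsb2, 4.84 for Cma1 and 2.96 for Fcer1a. These values rest on 2 circulating libraries, and the library left out is the circulating library in which every member was lowest. They therefore describe how far 1 library sets the test and do not add evidence for a difference. Leaving out circulating replicate 2 or 3 left 1 member called, Hdc.

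**Figure D2:**
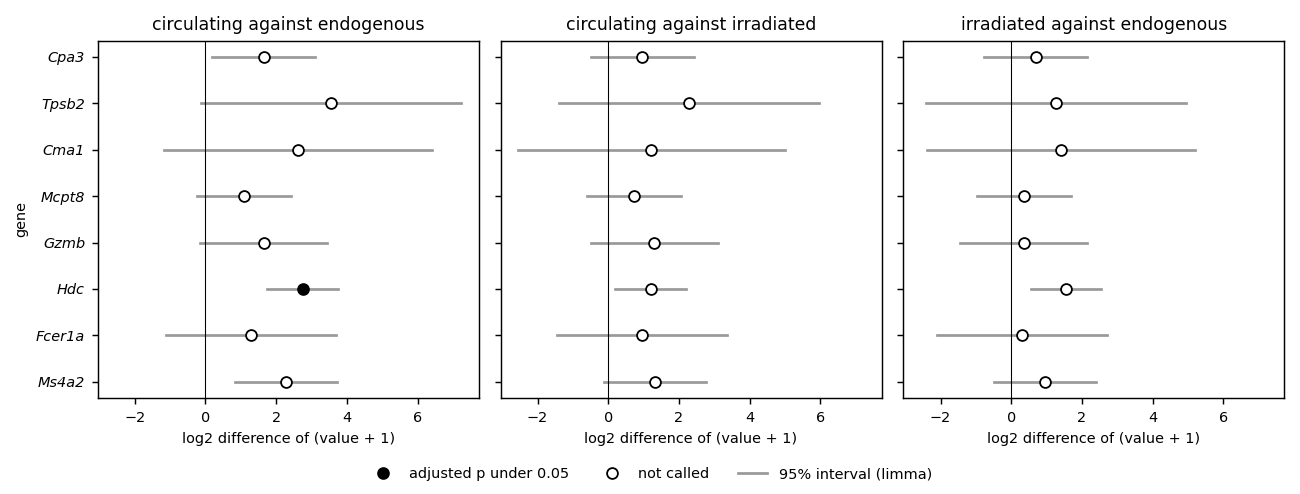
Log2 difference of (value + 1) for each measured gene in the 3 comparisons, with 95% intervals from limma; filled points have an adjusted p under 0.05. Hdc in circulating against endogenous cells is the 1 filled point of 24.

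Circulating cells were next compared with irradiated cells, which carry the same strain label. Because that label may be the host's for circulating cells, whether this comparison is matched for strain is unknown. All 8 log2 differences were above 0, with a median of 1.21 against -0.02 over all tested genes. None of the 8 passed with limma-trend, which called 0.029% of all tested genes, and 0 passed with limma voom on the recovered counts, which called 0.0581%. At an unadjusted p under 0.05 there was 1, Hdc, where 11.4% of all tested genes passed. The circulating and irradiated libraries overlapped for all 8 genes, while 7.46% of all tested genes were wholly higher in circulating libraries. The largest difference was again in Tpsb2, at 2.29 (SE 1.63, limma adjusted p = 0.631). Without circulating replicate 1, 4 of 8 genes were called higher, Cpa3 (adjusted p = 0.0272), Gzmb (0.0422), Tpsb2 (0.0424) and Fcer1a (0.0429), where 0.508% of all tested genes were. In the opposite direction, Fcer1a had a log2 difference of -0.03 without circulating replicate 2 and Cma1 one of -0.23 without circulating replicate 3.

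Irradiated cells were also compared with endogenous cells. All 8 log2 differences were above 0, from 0.32 for Fcer1a to 1.55 for Hdc, with a median of 0.82 against -0.01 over all tested genes. None of the 8 passed with limma-trend, which called 0.603% of all tested genes, or with limma voom, which called 0.683%. Of the 8, 1 (Hdc) had an unadjusted p under 0.05, where 14.9% of all tested genes did. Hdc was also the 1 gene of the 8 with groups that did not overlap, a pattern held by 15.2% of all tested genes. It was called when only these 2 groups were fitted (adjusted p = 0.035) and with sample weights (0.0344). Irradiated replicate 3 was the highest irradiated library for Hdc, Tpsb2, Ms4a2, Gzmb and Cma1, and irradiated replicate 2 for Cpa3, Mcpt8 and Fcer1a. The 3 comparisons share their groups, so they are not independent of each other.

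**Figure D3:**
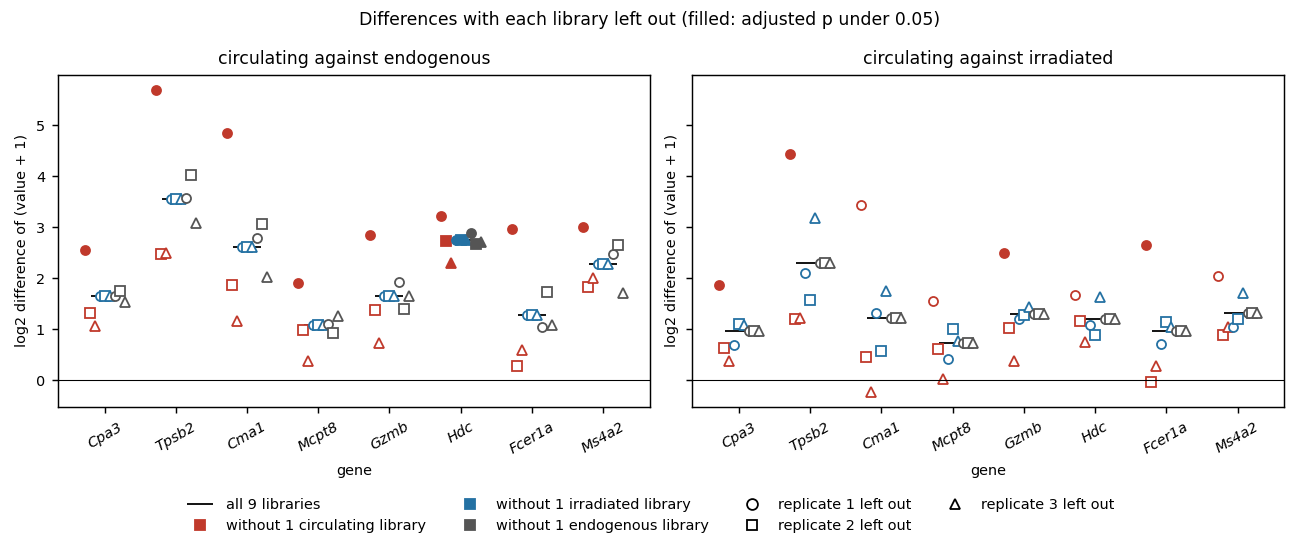
Log2 difference of each gene with all 9 libraries (line) and with 1 library left out, coloured by the group of the library left out and shaped by its replicate; filled points have an adjusted p under 0.05. Leaving out circulating replicate 1 gives the highest point for every gene in circulating against endogenous cells, up to 5.70 for Tpsb2.

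Levels of different genes were compared per kilobase of exon. In circulating cells the order of the mean normalised value per kilobase was Cpa3 (160 ± 116, SD, n = 3), Cma1 (72.3 ± 79.0), Mcpt8 (63.6 ± 55.4), Tpsb2 (57.8 ± 49.7), Gzmb (22.9 ± 23.3), Fcer1a (22.4 ± 20.7), Hdc (16.6 ± 10.01) and Ms4a2 (12.2 ± 7.87). Neighbours in that order were closer together than the larger of their SDs. In endogenous cells Cpa3 (37.1 ± 5.54) and Mcpt8 (21.2 ± 4.97) stood above the rest by more than their SD, and the other 6 genes lay between 1.29 for Tpsb2 and 3.82 for Fcer1a. Tpsb2 was thus last of 8 in endogenous cells and 4 of 8 in circulating cells. The place of Hdc depends on the length used: per kilobase of its longest coding transcript it was 44.5 in circulating and 5.48 in endogenous cells, which is place 5 of 8 and place 3 of 8.

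The proportions of the members differed between the 2 high libraries. From circulating replicate 2 to replicate 3, Cma1 was 2.61 times, Gzmb 2.52 times, Mcpt8 2.31 times, Hdc 1.80 times and Cpa3 1.40 times as high. Tpsb2 was 0.972 times, Ms4a2 0.793 times and Fcer1a 0.644 times as high. The genes of the chromosome 14 cluster were thus higher in replicate 3 and both receptor chains higher in replicate 2. With 1 library each, these ratios have no replicate check.

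Across the 9 libraries the members varied together. Pearson correlations of log2(value + 1) between the 28 pairs of members ran from 0.539 (Hdc with Fcer1a) to 0.962 (Tpsb2 with Cma1), with a median of 0.856. Over the 6 irradiated and endogenous libraries alone, the range was -0.376 (Fcer1a with Gzmb) to 0.943 (Tpsb2 with Cma1), with a median of 0.525, and 25 of 28 pairs stayed above 0. All points of a correlation share their library and its depth, and the values over 9 libraries rest largely on circulating replicates 2 and 3. Outside the list, the genes closest to a member over the 9 libraries by Pearson correlation were App (0.994), Sema4a (0.988) and Gpi1 (0.985) for Hdc. For the mast cell proteases they were Ube2f (0.968), Xpnpep1 (0.962) and Kctd20 (0.961) for Cpa3, Adgre5 (0.981), Dnajc27 (0.974) and Tubb6 (0.97) for Tpsb2, and Stt3a (0.983), Aasdhppt (0.969) and Mtf1 (0.961) for Cma1. Kctd20 was closest to both Gzmb (0.968) and Mcpt8 (0.944), followed by Brcc3 (0.965) and Mapre2 (0.936) for Gzmb and Naip2 (0.934) and Sos1 (0.924) for Mcpt8. For the receptor chains they were Tdp1 (0.976), Tubb6 (0.967) and Pxylp1 (0.965) for Ms4a2 and Tmem203 (0.96), Vps35 (0.951) and Mtf1 (0.932) for Fcer1a. With so many genes and 9 libraries, correlations of this size are a description only.

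Other genes of the lineage did not all follow the members. Of 19 listed genes of granule contents and mediators, 10 were measured. Tpsab1, Tpsg1, Mcpt1, Mcpt2, Mcpt4, Mcpt9, Tph1, Il13 and Il6 were not analysed here. Of 10 measured genes of granule contents and mediators, 2 rose in circulating against endogenous cells (Ctsg and Srgn), 1 fell (Il4) and 7 did not pass, with a median log2 difference of -0.04, equal to that of all tested genes. Over all tested genes 8.63% were called, 734 higher and 455 lower. Ctsg, the protease cathepsin G that myeloid progenitors also express, was 918, 1546 and 2667 in circulating, 778 (replicate 1), 516 and 863 in irradiated and 143, 103 and 129 in endogenous replicates. The groups did not overlap, the log2 difference was 3.64 (SE 0.32, limma adjusted p = 0.0011), and Ctsg was also called in irradiated against endogenous cells (2.49, adjusted p = 0.00998), a call lost without irradiated replicate 1 (0.0815) or 3 (0.0795) or endogenous replicate 1 (0.0527) or 2 (0.0639). Srgn, the proteoglycan core of the granule, was 1348 ± 350 against 832 ± 53.9 (adjusted p = 0.0359, called in 8 of 18 alternatives). Il4, a cytokine that basophils release, was 0.972, 0.0376 and 0.368 in circulating and 3.17, 4.69 and 3.08 in endogenous replicates. The circulating values were near the detection limit, at 21, 0 and 6 estimated counts, against 81.0, 106 and 79.1 in endogenous replicates. Its limma adjusted p was 0.0237, and the call held in 10 of 17 alternatives. Of the 10 genes, 4 had a log2 difference above 0. Alox5 and Slc18a2 were named after their values were seen. Alox5 was 9.06, 61.7 and 37.5 in circulating and 5.82 to 13.7 in endogenous replicates (limma adjusted p = 0.0911). Slc18a2 was 54.0, 128 and 50.8 in circulating and 88.8 to 125 in endogenous replicates (limma adjusted p = 0.211).

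Among the surface receptors, 12 of 13 measured genes entered the test in circulating against endogenous cells: 1 rose (Siglecf), 2 fell (Kit and Ptger3) and 9 did not pass, with a median log2 difference of -0.02, beside the 8.63% called over all tested genes. Kit, the receptor for stem cell factor on which mast cells depend and also a gate of the sort, was 328, 401 and 410 in circulating, 576, 562 and 622 in irradiated and 887, 1011 and 737 in endogenous replicates. Kit was therefore lowest in the group in which the members were highest, with groups that did not overlap (log2 difference -1.20, SE 0.13, limma adjusted p = 0.00257). Siglecf, a receptor of eosinophils and some mast cells, was 38.4 ± 13.7 against 10.3 ± 4.49 (adjusted p = 0.0208, called in 13 of 18 alternatives). The prostaglandin receptor gene Ptger3 was 14.8 ± 4.04 against 33.7 ± 8.81 (adjusted p = 0.0304, called in 10 of 18). Mrgprb1, a receptor gene of mast cells that was named after its values were seen, stayed outside the test: it was 26.3 and 6.54 in circulating replicates 2 and 3 and at or below 0.195 in the other 7 libraries. Il1rl1, the receptor for interleukin 33, likewise named afterwards, was 7.57, 3.96 and 20.3 in circulating replicates and 1.23 to 5.12 in endogenous replicates (adjusted p = 0.127).

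The 14 genes that carry the FceRI signal inside the cell were all tested and 0 passed in any comparison. Limma-trend called 8.63% of all tested genes in circulating against endogenous, 0.029% in circulating against irradiated and 0.603% in irradiated against endogenous cells. With 14 genes, a count of 0 is near these shares. In circulating against endogenous cells their median log2 difference was -0.12, and 2 had an unadjusted p under 0.05 with limma-trend, where 26.7% of all tested genes did. With limma voom 0 of the 14 passed in this comparison, where 6.06% of all tested genes did. In each of the other comparisons 1 of the 14 had an unadjusted p under 0.05 with limma-trend, where 11.4% (circulating against irradiated) and 14.9% (irradiated against endogenous) of all tested genes did. Vav1, a signalling adaptor and exchange factor, was 351 ± 20.8 in circulating and 336 ± 21.3 in endogenous cells (SD, n = 3), and the phospholipase gene Plcg2 was 199 ± 16.9 and 235 ± 66.2. These genes are shared with many blood cells.

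Among 12 tested transcription factors of the lineage, 1 rose between circulating and endogenous cells (Gata1), 0 fell and 11 missed the threshold, with a median log2 difference of -0.03. A share of 1 in 12 is near the 8.63% called over all tested genes. Gata1, a factor of mast cell, basophil, eosinophil, erythroid and megakaryocyte progenitors, was 19.1, 58.7 and 85.4 in circulating, 24.0, 36.0 and 63.7 in irradiated and 15.7, 10.3 and 9.59 in endogenous replicates. All circulating libraries were above the endogenous ones, and replicate 1 was again the lowest circulating library (log2 difference 1.90, SE 0.50, limma adjusted p = 0.0409). The call held in 7 of 18 alternatives and was lost without any single library other than circulating replicate 1, with adjusted p of at most 0.112. Gata2, a factor needed earlier in the lineage, was 42.1, 125 and 41.4 in circulating replicates, so that replicates 2 and 3, both high for the members, lay at opposite ends. Mitf, a factor of mast cells, was low throughout, from 1.19 to 6.08. Gata2 and Mitf were named after their values were seen. Between circulating and irradiated cells 0 genes of the 4 lineage lists passed with limma-trend or limma voom, which called 0.029% and 0.0581% of all tested genes. With limma-trend, 1 granule, 4 receptor, 1 signalling and 2 transcription factor genes had an unadjusted p under 0.05, where 11.4% of all tested genes did.

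Marker genes of other lineages were summed in the same libraries. The summed value of 8 genes of granulocyte-monocyte progenitors was 12827, 24254 and 38861 in circulating replicates 1 to 3, 7638 to 16104 in irradiated and 2150 to 3065 in endogenous libraries. Of these 8 genes, which include Ctsg, 5 rose in circulating against endogenous cells, where 734 of 13771 tested genes rose. Mpo, the myeloperoxidase gene, was 9410, 17263 and 28138 in circulating replicates 1 to 3, and Elane, the neutrophil elastase gene, 1538, 3664 and 5100. Both were lowest in replicate 1 among the circulating libraries, yet in replicate 1 they were above every endogenous library. Of the members, Hdc and Ms4a2 shared this, and the other 6 lay within or below the endogenous range in replicate 1. Erythroid and megakaryocyte genes summed to 195, 599 and 920 in circulating replicates and B cell genes to 107, 282 and 222, against 190 to 227 and 69.3 to 99.2 in endogenous libraries. Car1 was the largest part of the erythroid and megakaryocyte sum in circulating replicates, at 70.8, 353 and 610. The 5 measured eosinophil genes summed to 37.1 to 68.7 in circulating and 18.2 to 32.7 in endogenous libraries, with Prg2 at 0.0376 in circulating replicate 2. Siglecf, also in the receptor list, was the largest part in circulating libraries, at 27.2, 34.3 and 53.7. Of the 5 eosinophil genes, 2 had a log2 difference above 0 between circulating and endogenous cells, with a median of -0.22. Monocyte and macrophage genes summed to 510, 1352 and 1611 in circulating replicates 1 to 3 and 148 to 240 in endogenous libraries. Ly6c2 was the largest part of these circulating sums, at 379, 939 and 1443. Neutrophil genes did not follow the members, with sums of 1459, 1851 and 1196 in circulating and 1143 to 2363 in endogenous libraries. Of the 9, 2 fell (Mmp8 and Retnlg), where 455 of 13771 tested genes fell. Retnlg overlapped between these groups, at 26.1 in circulating replicate 1 and 25.5 to 59.6 in endogenous libraries. Genes of plasmacytoid dendritic cells summed to 385, 214 and 207 in circulating replicates, highest in replicate 1, and 277 to 352 in endogenous libraries. Tcf4 was the largest part of these circulating sums, at 308, 161 and 133, while Siglech was at most 0.413 there. The part of these cells in the members' values was not tested.

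**Figure D4:**
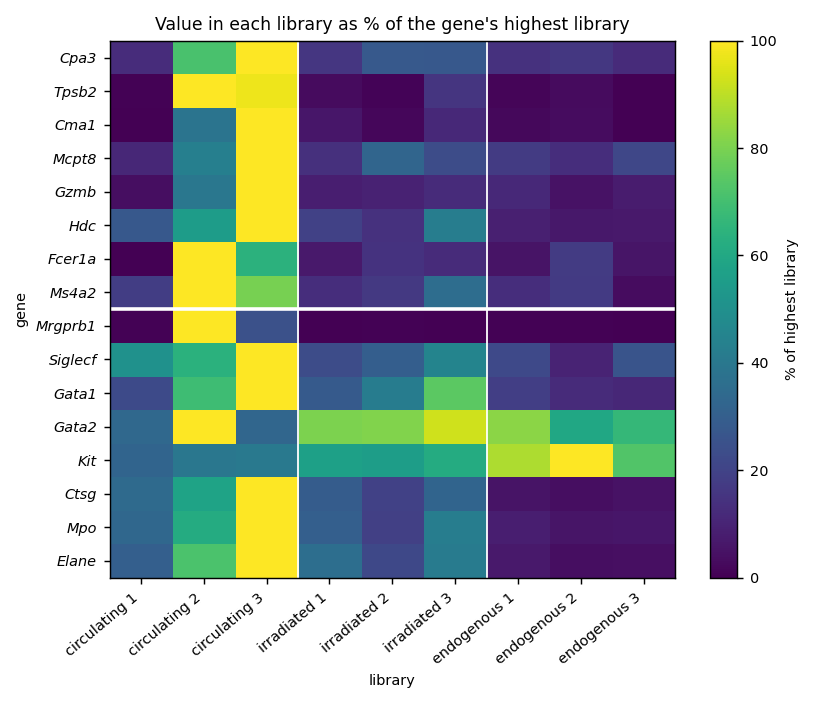
Value of each gene in each library as a percentage of the gene's highest library (colour), with the 8 members above the white line and other lineage and progenitor genes below it. Circulating replicates 2 and 3 hold the highest value of every member, 3 genes in replicate 2 and 5 in replicate 3, whereas Kit is highest in endogenous libraries.

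The libraries held 14065855 (circulating replicate 2) to 27012345 estimated counts, and circulating replicate 1, the lowest circulating library for every member, held 22288647. The gate genes were present in all libraries, with Ly6a (Sca-1) at 127 to 202, Kit at 328 to 1011 and Ptprc (CD45) at 450 to 651. Libraries of a group correlated at 0.920 to 0.936 over all genes in circulating cells, against 0.971 to 0.979 in irradiated and 0.965 to 0.968 in endogenous cells, so the circulating libraries were the least alike.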

How the data were processed

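RNA of sorted LSK cells was sequenced after cDNA amplification with SMART-Seq v4 and Nextera XT library preparation, per the labels' protocols, a chemistry that does not mark strand. Tools listed in the submitters' processing notes are CASAVA, RSEM (1.3.1) and limma, and the build is mm10; what each was used for, the annotation, the scaling and the gene filter are not stated there. The deposited values are a normalised signal: each is an estimated count plus 0.5, times a constant of its column, and 100% of the recovered counts ended at their second decimal, within 0.001 of its unit. They totalled 14065855 to 27012345 per library, and limits drawn from them cover counting error only; a count of 0 was deposited as 0.0182 to 0.0376.

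Groups came from the source labels. Because the values are not counts, limma-trend was used, the form planned for normalised values (package version 3.58.1 under R 4.3.3). It took log2(value + 1), moderated robustly, with all 9 libraries in 1 fit and no covariates. Genes with a value of at least 1 in at least 3 libraries (13771) were tested and p-values adjusted over all of them by Benjamini-Hochberg. Differences are given as log2(value + 1), so those of low genes are understated. The fit was also run on simulated data in which a gene had the same spread in every library. The circulating libraries were the least alike, so that run does not show how the fit behaves on them. No libraries of a group held identical values. Positions and exon lengths came from GENCODE M21 (GRCm38), and 14405 of 14461 gene IDs matched a symbol. Members, lists and motifs were chosen with earlier results of these data known. Named were all members, up to 4 called genes per lineage list (or the 2 with the highest values), and the genes with the highest correlation to each member among those with a mean log2 value of at least 2, predicted loci and pseudogenes left out, 3 per member. Mpo, Elane and Ctsg were fixed as values beside the members. Alternatives were 9 settings of scale, filter, normalisation, variance model, samples and block, and leaving out each of the 9 libraries.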

Additional observations from a re-analysis of the deposited data

How the results depend on the processing

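With 9 changed settings and 9 single libraries left out, Hdc in circulating against endogenous cells stayed called in all 18. The number of members called in that comparison was 1 and became 2 (Ms4a2 added, adjusted p = 0.0495) when a value of at least 1 in at least 6 libraries was required; with 1 library left out it ran from 1 to 8, the highest without circulating replicate 1. In circulating against irradiated cells it was 0, and 0 to 4 with 1 library left out. In irradiated against endogenous cells it was 0 (0 to 0), and 1 with sample weights or with only the 2 groups fitted. Genes called in the 4 lineage lists together numbered 7 in circulating against endogenous cells, 3 with sample weights, 2 with only the 2 groups and 2 to 14 with 1 library left out. In circulating against irradiated cells they numbered 0 (0 to 1), and in irradiated against endogenous cells 1 (0 to 4), 2 when scaled by library total and 5 with sample weights or only the 2 groups.

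Over all genes, 1189 calls in circulating against endogenous cells became 494 with sample weights, 239 with only the 2 groups and 257 to 2224 with 1 library left out. The 4 calls in circulating against irradiated cells became 8 with a pseudocount of 2 or with voom, 7 with the stricter filter, 11 when scaled by library total, 9 with the replicate block and 3 to 137 with 1 library left out. The 83 calls in irradiated against endogenous cells became 897 with sample weights, 757 with only the 2 groups and 6 to 263 with 1 library left out. Scaling by library total put the median gene at -0.22 in circulating and -0.13 in irradiated against endogenous cells, from -0.04 and -0.01, and changed 734 higher and 455 lower calls to 340 and 821; no member changed sign. The cause of these changes was not tested.

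Signs changed for members that were not called: with voom, Fcer1a became -0.89 (circulating against endogenous) and -1.39 (circulating against irradiated) and Cma1 -0.45 (circulating against irradiated); in the last comparison, with 1 library left out, Fcer1a ran from -0.0301 (without circulating replicate 2) to 2.65 and Cma1 from -0.23 (without circulating replicate 3) to 3.43. Among lineage genes the same comparison gave Srgn from -0.0106 to 0.366 and Gata1 from -0.174 to 0.876, both lowest without circulating replicate 3 and highest without circulating replicate 1, with Gata1 at -0.058 without irradiated replicate 1. Plcg2 ran there from -0.181 to 0.00432 (without irradiated replicate 2). Vav1 became -0.142, -0.0153 and -0.127 in the 3 comparisons when scaled by library total. In irradiated against endogenous cells Vav1 became -0.00806, -0.00462 and -0.0293 without irradiated replicate 3 and endogenous replicates 2 and 3, in a range up to 0.0581, and Plcg2 ran from -0.369 to 0.0529 (without endogenous replicate 1).

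The labels give circulating and irradiated libraries of a number a common code without saying what it marks. Correlations of deviations from the group mean between them were 0.0501, 0.0311 and 0.182. Between circulating and irradiated libraries of different numbers they ran from -0.167 to 0.106. The fit was planned without covariates and did not pair the libraries. Whether the code marks a shared animal or batch is unknown, and a fit paired by it was not run. The replicate block left 1, 0 and 0 members called in the 3 comparisons. It also joins the endogenous libraries by number, so it does not check the common code alone. Depth limits Fcer1a and Cma1 in circulating replicate 1, which rest on 0 and 1 estimated counts.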
